A study of Homo sapiens with 12 samples.

Results

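ATXN7L3B and the 4 genes of the SAGA deubiquitinase module (ATXN7L3, ATXN7, ENY2 and USP22) were described in A549 cells, an established human lung adenocarcinoma line. The 5 genes were chosen by symbol among the 22564 genes of the deposited table, with the highest mean normalized count deciding where a symbol had several gene IDs. Each symbol had 1 row, so that value decided nothing here. ATXN7L3B was put at the centre with results of the authors' comparison known. Total RNA was sequenced from 6 libraries of A549 cells transfected with small interfering RNA against YTHDC1 (siYTHDC1) and from 6 libraries given a scrambled control (siSCR). The study's general transfection methods give 40 nM siRNA over 48 to 72 h, which was taken to hold for both groups. No other treatment or genotype is named in the labels, which do not state dose or time. YTHDC1 is a nuclear protein that binds N6-methyladenosine, a methylated base of RNA.

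The value described for each gene is the authors' mean normalized count over all libraries, siYTHDC1 and siSCR together. It gives a level in the pooled experiment, and it cannot show how siYTHDC1 differed from siSCR. The table's other values are the authors' own fold changes and p-values, which are not reported here. Values per library were not analysed here, so the depth of each library is unknown, the knockdown of YTHDC1 was not checked, and no spread can be set beside a level. YTHDC1 itself had a mean normalized count of 232 in the authors' table. Markers of the line were present: 8 of 10 listed A549 markers were in the table, 7 of them at 1000 or more, led by ALDH1A1 (34836), KRT8 (27600) and AKR1B10 (24595), each as the authors' mean. The remaining marker, the epithelial adhesion gene EPCAM, was at 58.4, under the table's median of 65.8. The lung factor NKX2-1 and the surfactant gene SFTPC had no row. Of 5 markers of blood, endothelial and stromal cells, COL1A1 alone had a row, at an authors' mean of 194.

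SAGA is a transcriptional coactivator that acetylates and deubiquitinates histones at genes transcribed by RNA polymerase II. Its deubiquitinase module removes ubiquitin from histone H2B. USP22 is the enzyme of the module. ATXN7L3 and ENY2 are adaptors that it needs for activity, and ATXN7 anchors the module to the rest of SAGA. ENY2 is also a subunit of TREX-2, a complex of mRNA export at the nuclear pore. ATXN7 carries a glutamine repeat whose expansion causes a form of spinocerebellar ataxia. ATXN7L3B is a short paralog of ATXN7L3 that binds ENY2 and is found mostly in the cytoplasm.

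ATXN7L3B (ENSG00000253719.2 in the table) lies on chromosome 12, 74931615 to 74939210, plus strand (GRCh37), and the reference annotation tags it as a retrogene, a copy of a processed transcript. Its canonical transcript has 1 exon, which was the case for 2.21% of protein-coding genes in the table. ATXN7L3 (chromosome 17, 42269173 to 42277481, minus strand) has 13 exons in its canonical transcript. The ATXN7L3B protein has 97 residues, against 347 in ATXN7L3. It aligned with residues 3 to 103 of ATXN7L3, near that protein's start, with 54 of 89 aligned residues identical (60.7%). Identity was 68.4% in a local alignment, which kept residues 1 to 76 of ATXN7L3B. In the first alignment, residues of the ATXN7L3 protein after 103 had no partner in the 97 residues of ATXN7L3B. Untranslated sequence was not part of these protein alignments.

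Similarity of this kind matters for a read count, since reads from near-identical stretches can go to either gene. The longest stretch that the canonical transcripts of ATXN7L3B and ATXN7L3 share exactly was 43 bases, in the 3′ untranslated part of ATXN7L3B. None of the 7447 windows of 150 bases in the ATXN7L3B transcript occurred in a transcript of another gene on either strand, and none of its 7547 windows of 50 bases did. The same counts were 0 for ATXN7L3, ATXN7 and ENY2 at both window sizes. In USP22, 4 of 5140 windows of 50 bases also occurred in TMF1, and 0 of 5040 windows of 150 bases did. Genes that overlap a member were left out of this count. Matches with a few mismatches were not searched.

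Each overlap that was found ran on the opposite strand. ATXN7L3B shares 375 exon bases with a long non-coding RNA (ENSG00000257386) that had an authors' mean of 2.16. USP22 shares 394 exon bases with CCDC144NL-AS1 (authors' mean 13.4) and 504 with ENSG00000263986 (authors' mean 6.12). ATXN7L3 shares 125 exon bases with the protein-coding TMUB2, which was well expressed at an authors' mean of 395. ATXN7 shares 2 exon bases with THOC7. Libraries were made with a stranded kit, but whether counting used the strand is not given in the sources used here. How the shared bases affected the counts of ATXN7L3B, USP22, ATXN7L3 and ATXN7 is therefore unknown. No overlap was found for ENY2.

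The shapes of the 5 transcripts differed widely. ATXN7L3B has a canonical transcript of 7596 bases, of which 294 are coding and 7024 (92.5%) lie in the 3′ untranslated region. That region is longer than in 96.7% of protein-coding genes in the table, whose median is 1284 bases, while the protein is shorter than in all but 1.80% of them. ENY2 has a similar shape on a smaller scale, with 101 residues and 85.2% of a 2901-base transcript after the stop codon. ATXN7 has the longest protein, 892 residues, and 3995 bases of 3′ untranslated sequence. USP22 has 525 residues and 3435 bases, and ATXN7L3 has 2458 bases.

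**Figure D1:**
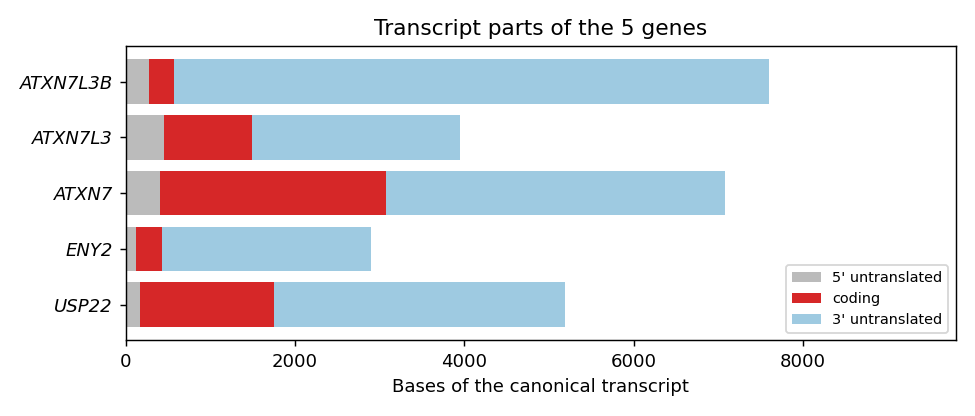
Length in bases of the 5′ untranslated (grey), coding (red) and 3′ untranslated (blue) parts of the canonical transcript of each gene, on a linear axis. ATXN7L3B pairs the shortest coding part of the 5, 294 bases, with the longest 3′ untranslated part, 7024 bases.

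The bases GGACT, a common form of the sequence in which adenosine is methylated, were counted on the sense strand of each canonical transcript. ATXN7L3B held 8, or 1.05 per kb, close to the median of 0.936 per kb over 14014 protein-coding genes of the table. USP22 (5 matches, 0.964 per kb) and ATXN7 (7 matches, 0.989 per kb) were also near it. ATXN7L3 (7 matches, 1.77 per kb) and ENY2 (5 matches, 1.72 per kb) were denser than 86.9% and 85.9% of those genes. At least 1 match was present in 91.5% of the transcripts, so a match by itself sets no member apart. A match is a stretch of letters and says nothing of whether the base was methylated in these cells.

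As a level, USP22 stood far above the others. USP22 (ENSG00000124422.7, chromosome 17, 20902909 to 20947073, minus strand) had an authors' mean normalized count of 6212, higher than 99.2% of the table's genes. ATXN7L3 (ENSG00000087152.11) followed at 1262, higher than 90.2%. ATXN7 (ENSG00000163635.13, chromosome 3, 63848831 to 63989138, plus strand) was at 793, higher than 83.6%.

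ATXN7L3B had an authors' mean of 598, higher than 78.7% of all genes and than 66.6% of the protein-coding ones. Its mean was 47.3% of that of ATXN7L3, 75.4% of that of ATXN7 and 9.62% of that of USP22. ENY2 (ENSG00000120533.8, chromosome 8, 110346553 to 110358183, plus strand) was lowest of the 5 at 375, higher than 71.0% of all genes. For comparison, the median gene of the table had a mean of 65.8, and the median protein-coding gene 313.

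Counts rise with transcript length, so the levels were also divided by the length of each gene's merged exons. On this scale USP22 was at 917 per kb and ATXN7L3 at 237 per kb, which kept the first and second places. ATXN7L3B was at place 3 with 78.7 per kb, higher than 69.0% of genes with a length. ENY2 came to 55.3 per kb and ATXN7 to 51.8 per kb, close to each other. The mean of ATXN7L3B per kb was 33.2% of that of ATXN7L3, against 47.3% before lengths entered. ATXN7L3B has 1 annotated transcript, so its merged exons are no longer than that transcript. The other genes have 11 to 20, and their merged exons are longer than their longest transcript, which lowers their values on this scale. The same can hold for other genes of the table with several transcripts, so the 69.0% applies to merged exons only. Without values per library, no pair of neighbours in this order could be tested.

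The order below USP22 depended on which length was used. With the longest annotated transcript in place of merged exons, ENY2 (127 per kb), ATXN7 (110 per kb) and then ATXN7L3B (78.7 per kb) followed USP22 and ATXN7L3. With the coding length, ATXN7L3B was second at 2033 per kb, above ENY2 (1227 per kb) and ATXN7L3 (1209 per kb). Coding length is a poor measure, most of all for ATXN7L3B, since 92.5% of its transcript follows the stop codon. That share was 85.2% in ENY2, 66.2% in USP22, 62.2% in ATXN7L3 and 56.5% in ATXN7. USP22 was first with each of the 3 lengths. The lengths come from a later annotation than the one the authors counted on.

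**Figure D2:**
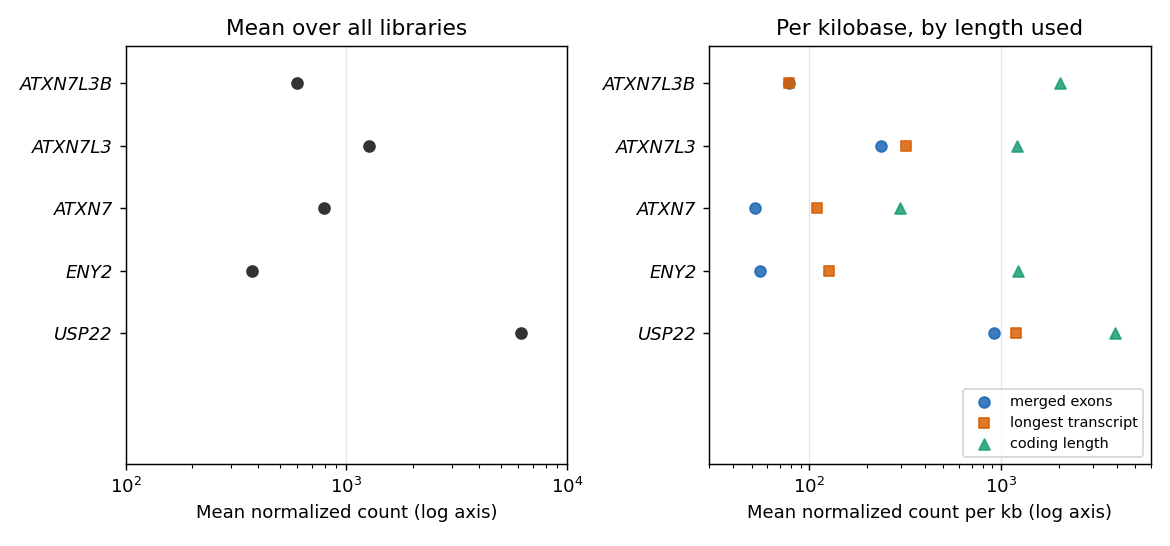
Left, the authors' mean normalized count over all libraries for each gene; right, the same value per kb of merged exons, of the longest transcript and of coding sequence, both on log axes, 1 point per gene and measure with no error bar. USP22 lies furthest right in each measure, while ATXN7L3B moves between 78.7 and 2033 per kb.

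The module was then set beside the rest of SAGA. The 4 genes of the module were ordered with 18 other SAGA genes by level per kb of merged exons. USP22 was first of 22 and ATXN7L3 was at place 4. ENY2 and ATXN7 were at places 18 and 19. With the longest transcript as the length, an alternative chosen after seeing the data, USP22 and ATXN7L3 kept their places, while ENY2 and ATXN7 were at places 13 and 14. The genes between USP22 and ATXN7L3 were SF3B5 (482 per kb) and SF3B3 (300 per kb), which also belong to the U2 snRNP of the spliceosome. The lowest 3 of these 22 by merged exons were TAF9B (21.7 per kb), SUPT3H (19.3 per kb) and TAF12 (18.1 per kb). The ATXN7 paralogs ATXN7L1 (31.9 per kb) and ATXN7L2 (13.3 per kb) were listed apart and left out of this order. ATXN7L2 was lower than all 22, so the lowest places depend on which genes were listed. These positions describe transcripts, not the make-up of the complex.

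ATXN7L3B, at 78.7 per kb, lay within the ranges of the acetyltransferase module and of the core with TRRAP, and below both splicing factor subunits. Of 5 genes of the acetyltransferase module, 2 were above it, TADA3 (159 per kb) and the acetyltransferase KAT2A (132 per kb). The other acetyltransferase, KAT2B, was at 63.8 per kb. Of 11 genes of the core with TRRAP, 6 were above it, with a list median of 84.7 per kb. One of these, TAF9, carries a gene ID that the later annotation names AK6, and its 114 per kb is uncertain for that reason. With the longest transcript, 4 of the 5 and 8 of the 11 were above it. By merged exons, the median over all 14100 protein-coding rows was 58.6 per kb, and 5942 rows were above ATXN7L3B. The share of these rows above ATXN7L3B with the longest transcript was not computed.

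**Figure D3:**
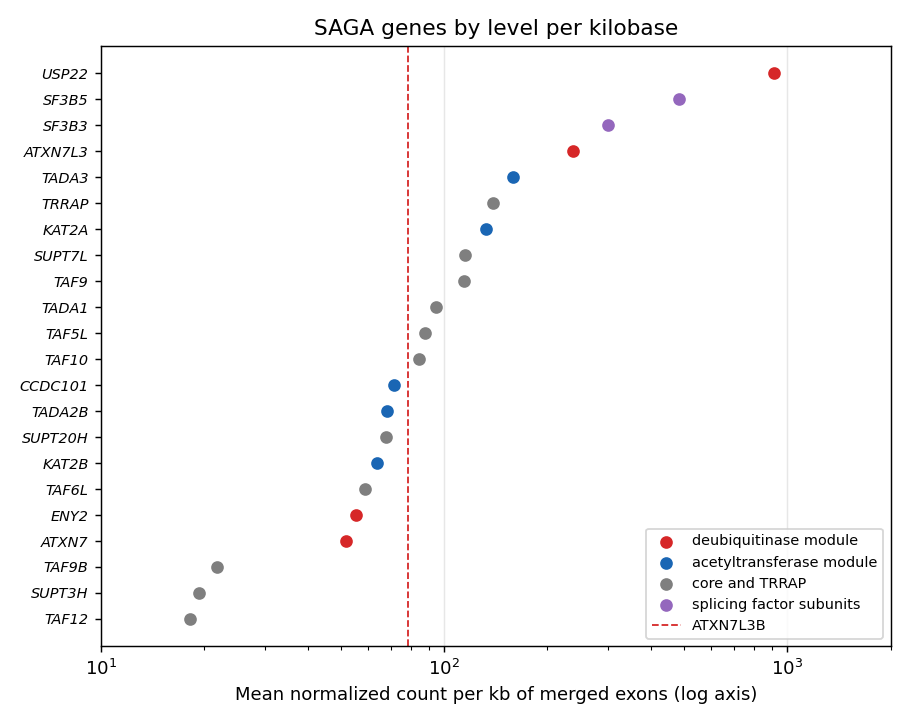
Level per kb of merged exons for 22 SAGA genes on a log axis, 1 point per gene, coloured by module, with ATXN7L3B as a dashed line at 78.7 per kb. USP22 tops the order at 917 per kb, while ENY2 and ATXN7 lie left of the dashed line, though at 127 and 110 per kb of the longest transcript both exceed 78.7.

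The 3 measured paralogs of USP22 and ATXN7 had lower levels than these subunits. USP51, a deubiquitinase related to USP22, had an authors' mean of 29.0, or 6.25 per kb. USP22 and USP51 proteins shared 70.8% of 523 aligned residues. USP27X, a further relative that shared 85.6% of 411 aligned residues with USP22, had no row under that symbol and is described by its sequence only. Both relatives are known to use ATXN7L3 and ENY2 as adaptors. ATXN7L1 was at 31.9 per kb and ATXN7L2 at 13.3 per kb, against 51.8 per kb for ATXN7. ATXN7 shared 46.8% of its aligned residues with ATXN7L1 and 38.2% with ATXN7L2. These 2 values depended on the gap setting, and were 56.5% and 50.7% with a gap opening of 5. The longest stretch shared exactly with USP27X was 21 bases, and with USP51 20 bases.

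ENY2 has partners outside SAGA, so TREX-2 and the enzymes that ubiquitinate H2B were described too. ENY2 stood at 55.3 per kb, against a median of 68.0 per kb for the 5 other TREX-2 genes. With the longest transcript the order turned round, with ENY2 at 127 per kb against a median of 99.4 per kb. MCM3AP, the TREX-2 scaffold, was at 186 per kb and PCID2 at 88.4 per kb by merged exons, both above ENY2 and ATXN7L3B with either length. SHFM1, a small acidic protein shared with the proteasome, was at 25.8 per kb by merged exons and 99.4 per kb by the longest transcript. The 5 genes of H2B ubiquitination, which oppose the module's reaction, lay between 127 and 244 per kb of merged exons. All 5 were above ATXN7L3B and below USP22 with either length. RNF40 (244 per kb) and RNF20 (183 per kb) encode the ubiquitin ligase, UBE2A (218 per kb) and UBE2B (127 per kb) its conjugating enzymes, and WAC (182 per kb) a cofactor. ATXN7L3, at 237 per kb, was exceeded by RNF40 among them, but by UBE2A and WAC when the longest transcript was used.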

How the data were processed

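Total RNA of A549 cells, depleted of ribosomal RNA, was sequenced from 6 siYTHDC1 and 6 siSCR libraries, grouped by sample title. The authors used STAR (hg19) for alignment, HTSeq for counts per gene and DESeq2 for the comparison, whose model held a term for sequencing batch. The signal used here is the authors' deposited mean normalized count, pooled over all libraries. The other 5 value columns (log2 fold change, its error, Wald statistic, p-value, adjusted p-value) are the authors' own comparison and were not used. With no values per library, the planned edgeR test was not run, and there is no depth, SD or test. Genes and lists were chosen with earlier results of these data known.

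By gene ID, 21798 rows (96.6%) matched GENCODE release 44 mapped to GRCh37. Merged exons, canonical transcripts and overlaps came from it. Proteins were translated from it and aligned with BLOSUM62 (gap opening 10, extension 0.5, free ends) (Biopython 1.88). Some sequence is not reported here. Functions were tested on simulated data. All 5 genes, and members of 7 other fixed lists, could be named. Alternatives were other lengths, rows, gene sets and alignments. Python 3.11.15, pandas 2.3.3, numpy 2.4.6 and matplotlib 3.10.9 were used.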

Additional observations from a re-analysis of the deposited data

How the results depend on the processing

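No paired analysis was possible because the table holds a pooled mean and no column per library; leaving out libraries and other scalings could not be run for the same reason. With the longest transcript, the level per kb was 319 for ATXN7L3, 110 for ATXN7, 127 for ENY2 and 1197 for USP22, and that of ATXN7L3B did not change. With that length, in an alternative chosen after seeing the data, ENY2 moved to place 13 and ATXN7 to place 14 of the 22 SAGA genes, and ENY2 was above the TREX-2 median. With the coding length it was 2033 for ATXN7L3B, 1209 for ATXN7L3, 296 for ATXN7, 1227 for ENY2 and 3937 for USP22. Ranked among protein-coding genes alone, the percentile of the level was 66.6 for ATXN7L3B, 84.6 for ATXN7L3, 74.3 for ATXN7, 54.6 for ENY2 and 98.7 for USP22. Among genes with a mean of at least 10 it was 70.1, 86.2, 77.0, 59.3 and 98.8 in the same order of genes. The shifts in level per kb follow from shorter lengths. The lower percentiles follow from leaving out genes that mostly had lower levels than these. Summing rows of a symbol changed no level. The identity of the ATXN7L3B protein to ATXN7L3 was 68.4% in a local alignment and 63.2% with a gap opening of 5.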
